A study of Mus musculus with 8 samples.

Results

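Ephrins and their Eph receptors, netrins with the receptors of the DCC and Unc5 families, netrin-Gs, and Slits with their Robo receptors were described in picked mouse sensory neurons. The members were 39 genes of these families, 23 receptors and 16 ligands, found by exact symbol among the 43372 gene symbols of the count table. Each member was set between 2 populations of neurons from the dorsal root ganglion (DRG), the cluster of sensory cell bodies at each spinal nerve.

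The 8 libraries came from C57Bl/6 mice, 4 from Sst-IRES-Cre animals (Ssttm2.1(cre)Zjh/J) and 4 from Trpv1-IRES-Cre animals (Trpv1tm1(cre)Bbm/J), below the Sst and the Trpv1 libraries. Pups of both genotypes were given 10 µL of the Cre-dependent virus AAV9-CAG-FLEX-eGFP/tdTomato-WPRE into the abdomen at postnatal day 2. From each mouse, 150 to 250 labelled neurons were hand-picked and pooled when the animals were 3 to 5 weeks old. Cre was made from the Sst or the Trpv1 locus, and fluorescence marks cells that carried Cre after the injection, whatever their RNA at picking. Both Sst and Trpv1 RNA were present in all 8 libraries, and neither gene passed the test between groups (Sst 198 ± 106 against 94.2 ± 47.4 counts scaled to library size (CPM), edgeR adjusted p = 0.0753, and Trpv1 101 ± 69.2 against 195 ± 77.9 CPM, adjusted p = 0.109, SD, n = 4 each).

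These families are the classical systems that steer growing axons and sort connections. Ephrin-As are held in the membrane by a lipid anchor and ephrin-Bs by a transmembrane segment, and Eph receptors are receptor tyrosine kinases that also let ephrins signal back into the cell that bears them. Netrins attract axons through DCC and neogenin and repel them through Unc5 receptors, netrin-Gs are lipid-anchored relatives that bind netrin-G ligands at synapses in place of DCC, and Slits act on Robo receptors, mostly as repellents. In sensory neurons Slits are also known for promoting axon branching.

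Total counts per library ran from 7419027 to 12153109, and 14437 to 16917 genes held counts. All 11 general DRG neuron markers were detected in every library, at 0.631% to 0.79% of the counts in the Sst and 0.452% to 0.594% in the Trpv1 libraries. The sexes were not balanced: the 4 Sst libraries and Trpv1 replicates 3 and 4 held 4240 to 12659 counts of Xist, which is made by the silenced X of females, while Trpv1 replicates 1 and 2 held 0 and carried Y-linked counts. Pituitary hormone genes took 0.0471% of the counts in Sst replicate 2 and 0.135% to 0.191% in Trpv1 replicates 1, 2 and 3, and at most 0.000394% in the other 4. Of 13 markers of myelinated DRG neurons, 11 of the 12 tested were higher in the Sst libraries, at 0.403% to 0.863% of the counts against 0.22% to 0.285%, and one of them, Runx3, was at 0 in all 4 Trpv1 libraries. Of 7 peptidergic nociceptor markers, 6 were lower in Sst libraries, at 0.0109% to 0.0223% against 0.17% to 0.3%. The labels call the samples independent without tying each to an animal or session, so p-values measure the spread between these libraries. In pools of cells, fewer cells of a type and less RNA per cell cannot be told apart.

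Of the 39 members, 22 had counts high enough to be tested, 13 receptors and 9 ligands. With edgeR's quasi-likelihood test and an adjusted p threshold of 0.05, 4 members were higher in the Sst libraries (Ntng1, Robo1, Epha6 and Slit1), 2 were lower (Epha5 and Unc5d) and 16 did not pass. The 6 called members are 27.3% of the tested ones, beside 6.35% of all 11828 genes tested, of which 3.04% were higher and 3.31% lower. These same 6 were the members whose values did not overlap between groups, beside 11.1% of all genes tested. By role, 2 of 13 tested receptors were higher and 2 lower, while 2 of 9 tested ligands were higher and 0 lower. At an unadjusted p under 0.05, 5 receptors were higher and 3 lower, and 5 ligands were higher and 0 lower, beside 10.3% of all genes tested that were higher and 10.1% that were lower. By DESeq2, which called 902 of all 11828 genes, the adjusted counts were again 2 and 2 for receptors and 2 and 0 for ligands. Limma voom, with 605 genes called, gave 1 and 3 for receptors and 3 and 0 for ligands. Unadjusted, DESeq2 gave 3 and 3 for receptors and 4 and 0 for ligands, and limma voom 4 and 3 and 5 and 0. The share of all genes at that threshold was taken for edgeR alone. The median log2 fold change was 0.32 for the tested receptors and 1.79 for the tested ligands, against 0.00821 over all genes. The filter on low counts bears on these counts: 6 tested members (Epha4, Epha6, Efna1, Ntng1, Unc5a and Slit3) exceeded its level of 1.07 CPM, set before TMM scaling, in all 4 Sst libraries but not in all 4 Trpv1 libraries, Epha5 did so in the Trpv1 libraries alone, 11 exceeded it in all 8, and 4 in neither full group.

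**Figure D1:**
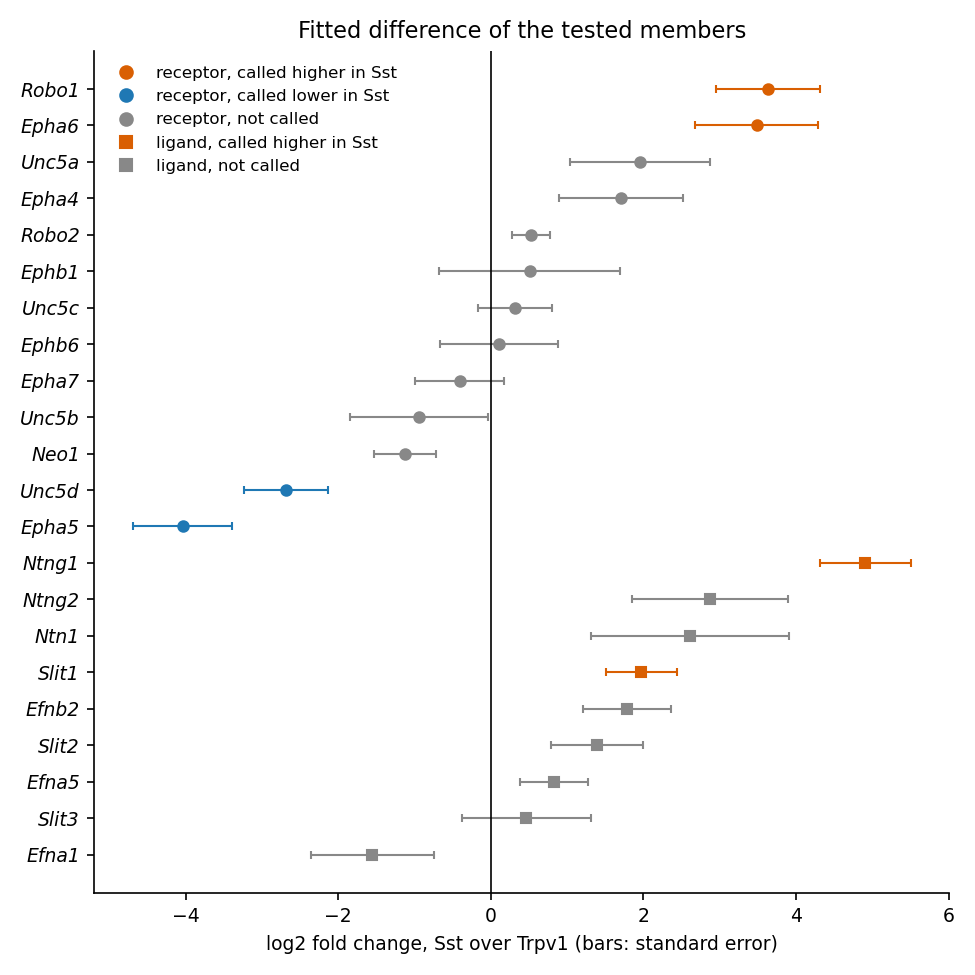
Fitted log2 fold change, Sst over Trpv1, of the 22 tested members, with bars of 1 standard error, receptors as circles and ligands as squares. Orange and blue mark members that passed the adjusted p threshold of 0.05 as higher and lower, and grey those that did not. Ntng1 lies farthest to the right at 4.91 and Epha5 farthest to the left at −4.04.

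Among EphA receptors the 2 populations differed most in Epha5 and Epha6. Epha5, a receptor tyrosine kinase for ephrin-As, is a gene on chromosome 5, 84054761 to 84417382, minus strand (GRCm38, GENCODE M21). Its levels were 2.39, 3.92, 1.67 and 0.726 CPM in Sst replicates 1 to 4 and 19.0, 35.4, 61.0 and 25.4 CPM in Trpv1 replicates 1 to 4. Every Trpv1 library was above every Sst library. Epha5 was 16.4-fold lower in the Sst libraries by the fit (2.18 ± 1.35 against 35.2 ± 18.5 CPM, SD, n = 4 each, log2 fold change −4.04, SE 0.649, edgeR adjusted p = 0.000175).

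Epha6, a further ephrin-A receptor, differed in the opposite direction. It lies on chromosome 16, 59653483 to 60605531, minus strand, and 2.02% of its exon bases are shared with the antisense gene Gm9017, whose reads cannot be told apart without strand. Its levels were 13.9, 9.48, 33.8 and 8.43 CPM in the Sst libraries and 0.621, 0.767, 3.05 and 1.59 CPM in Trpv1 libraries. The lowest Sst library was above the highest Trpv1 library. Epha6 was 11.2-fold higher in the Sst libraries (16.4 ± 11.8 against 1.51 ± 1.11 CPM, log2 fold change 3.49, SE 0.806, edgeR adjusted p = 0.00683). The difference was 2.86 on the log2 scale without Sst replicate 3 (adjusted p = 0.0415). It did not pass within the 6 libraries with Xist (2.89, adjusted p = 0.165), with a term for sex (2.87, adjusted p = 0.112) or by limma voom, where the difference was 3.57 (adjusted p = 0.0575).

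The other EphA receptors gave no call. Epha7 was at 6.86 to 21.1 CPM in the Sst and 5.52 to 34.7 CPM in Trpv1 libraries (log2 fold change −0.41, adjusted p = 0.754), and its groups overlapped. Epha4, which binds ephrins of both classes, was at 8.99 ± 6.57 against 2.89 ± 3.23 CPM (log2 fold change 1.71, adjusted p = 0.234). Its difference was 1.06 without Sst replicate 4 and 2.78 without Trpv1 replicate 2, and passed in neither case (adjusted p = 0.520 and 0.103). Further receptors, Epha1, Epha2, Epha3, Epha8 and Epha10, were too low to test, with group means of at most 2.04 CPM. Epha2 was seen in 2 libraries alone, at 7.44 CPM in Sst replicate 4 and 7.16 CPM in Trpv1 replicate 2.

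The makeup of the EphA family differed between groups when levels were set per length, as CPM per kilobase of annotated exon. Epha5 made up 2.30% of the summed EphA level in the Sst libraries (range 0.568% to 4.37%) and 41.5% in the Trpv1 libraries (18.2% to 58.0%). For Epha6 the shares were 46.6% (20.9% to 75.0%) and 6.16% (1.88% to 11.5%). Neither share overlapped between groups, while the summed EphA level did, at 4.62 to 8.52 against 2.61 to 6.49 CPM per kb. Epha7 took 21.8% and 30.1% of it.

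The EphB receptors bind ephrin-Bs, and none was called. Ephb6, a member without kinase activity, led the family per length, with 79.7% of its summed level in the Sst and 71.9% in the Trpv1 libraries. Its means were 5.36 ± 3.75 and 5.40 ± 4.39 CPM (log2 fold change 0.10, adjusted p = 0.955). Ephb1 averaged 2.10 and 1.68 CPM (log2 fold change 0.51, adjusted p = 0.863), with 6.52 CPM in Trpv1 replicate 2. Ephb2, Ephb3 and Ephb4 were not tested, with group means from 0.0747 to 2.38 CPM.

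The sequences upstream of Epha5 and Epha6, which moved in opposite directions, and of Robo1, which is described with its ligands, are given as called members with an entry in the RefSeq promoter table (GRCm38.p6). That table held 34 of the 39 members and 4 of the 6 called ones, and the entry of the fourth, Ntng1, overlapped annotated exons and is not printed. Each run is the 250 bases before the annotated start, 5′ to 3′ on the gene's strand, at chr5:84417383-84417632 (minus), chr16:60605532-60605781 (minus) and chr16:72662899-72663148 (plus), with matches to the motifs searched in capitals.
Epha5: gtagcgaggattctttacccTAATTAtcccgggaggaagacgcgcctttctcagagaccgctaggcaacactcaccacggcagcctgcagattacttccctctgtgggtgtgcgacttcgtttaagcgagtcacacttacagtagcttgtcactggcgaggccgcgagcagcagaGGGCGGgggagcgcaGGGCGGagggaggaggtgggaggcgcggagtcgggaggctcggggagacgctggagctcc
Epha6: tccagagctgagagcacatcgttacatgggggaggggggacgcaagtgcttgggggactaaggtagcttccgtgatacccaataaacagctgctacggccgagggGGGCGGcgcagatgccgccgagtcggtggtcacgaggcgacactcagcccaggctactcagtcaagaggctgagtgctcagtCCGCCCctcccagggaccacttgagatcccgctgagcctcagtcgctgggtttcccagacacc
Robo1: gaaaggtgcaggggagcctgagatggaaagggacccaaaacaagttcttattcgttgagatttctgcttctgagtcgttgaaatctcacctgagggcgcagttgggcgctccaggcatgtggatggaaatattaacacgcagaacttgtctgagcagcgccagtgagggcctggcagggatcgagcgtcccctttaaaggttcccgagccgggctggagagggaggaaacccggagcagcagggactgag
Motifs were searched on both strands, and none of the matches overlap. The homeodomain core was spelled TAATTA, which reads alike on either strand. For the GC box, a frequent element of promoters without other positioning signals, the letters were GGGCGG. Runx transcription factors, which help to specify sensory neuron classes, recognise the core searched as TGTGGT. Finally the classical element upstream of many transcription start sites, named the TATA box, was searched as TATAAA. The Epha5 window held 1 homeodomain core and 2 GC box cores, the Epha6 window held 2 GC box cores, and the Robo1 window held 0 matches. Of 32851 such windows 4.84% held the homeodomain core, 32.7% the GC box core, 14.0% the Runx core and 12.4% the TATA box core. Their CG dinucleotides numbered 20, 15 and 11, beside a median of 6 over all windows. The Robo1 window lies inside the longest annotated Robo1 gene model and overlaps 0 exon bases. A match is a description of letters and says nothing of binding.

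**Figure D2:**
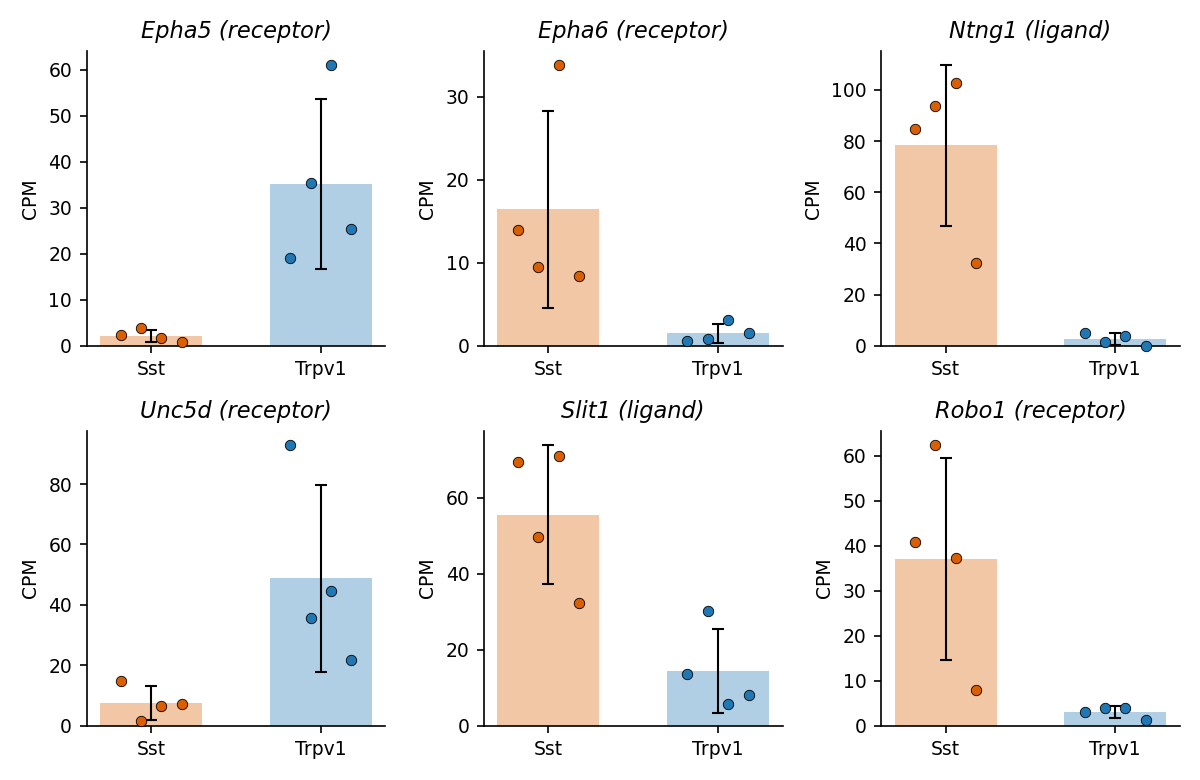
Level in CPM of the 6 called members in each of the 4 Sst and 4 Trpv1 libraries, on linear axes that start at 0. Points are libraries, bars the group means and error bars 1 SD (n = 4). No panel shows overlap between the groups.

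Of the receptors for netrins, Unc5d was lower in the Sst libraries. Unc5d, a member of the repulsive Unc5 class, lies on chromosome 8, 28646717 to 29219636, minus strand. Its levels were 14.9, 1.53, 6.58 and 7.16 CPM in the Sst libraries and 93.0, 35.6, 44.7 and 21.8 CPM in Trpv1 libraries. Trpv1 replicate 1 was the highest, and the lowest Trpv1 library stood above the highest Sst library. Unc5d was 6.43-fold lower in the Sst libraries (7.55 ± 5.54 against 48.8 ± 31.0 CPM, log2 fold change −2.68, SE 0.551, edgeR adjusted p = 0.00319). Within the 6 libraries with Xist the difference was −2.08 and did not pass (adjusted p = 0.114), nor with a term for sex (−2.10, adjusted p = 0.0785).

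Neo1 encodes neogenin, a DCC relative that binds netrins and repulsive guidance molecules. Its levels were 27.6, 12.3, 83.1 and 27.6 CPM in the Sst libraries and 69.0, 92.1, 101 and 70.9 CPM in Trpv1 libraries. Sst replicate 3 lay among the Trpv1 libraries, while the other 3 Sst libraries lay below them all. The difference did not pass (37.7 ± 31.2 against 83.4 ± 15.9 CPM, log2 fold change −1.13, SE 0.404, adjusted p = 0.101), but did without Sst replicate 3 (−1.85, adjusted p = 0.00642) and by limma voom (−1.42, adjusted p = 0.0343). Those were the only 2 of 18 alternatives in which Neo1 passed. Within the 6 libraries with Xist the Neo1 difference was −1.15 (edgeR adjusted p = 0.293).

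Unc5c was at 20.8, 22.0, 17.1 and 56.1 CPM in the Sst libraries and at 23.3, 16.6, 42.9 and 12.1 CPM in the Trpv1 libraries. The groups overlapped over most of their range (log2 fold change 0.32, SE 0.484, adjusted p = 0.770). Unc5a averaged 8.97 ± 5.77 against 2.35 ± 3.32 CPM (log2 fold change 1.96, adjusted p = 0.226), and it held 0 counts in Trpv1 replicates 3 and 4. Without Trpv1 replicate 2 the Unc5a difference was 3.37 (adjusted p = 0.114). Unc5b averaged 2.49 and 4.43 CPM (log2 fold change −0.93, adjusted p = 0.619), with 12.8 CPM in Trpv1 replicate 4. Dcc, the classical attractive netrin receptor, was too low to test, with 65 counts over the 4 Sst and 7 over the 4 Trpv1 libraries.

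Per length, the summed level of the DCC and Unc5 families was 9.33 ± 3.29 CPM per kb in the Sst and 17.4 ± 2.96 in the Trpv1 libraries, and the highest Sst library (14.2) was above the lowest Trpv1 library (13.2). Neo1 held 41.7% and 55.8% of it. Unc5d held 9.29% (2.26% to 19.4%) and 29.0% (17.8% to 50.6%), so the share overlapped although the level did not. Unc5a held 24.2% (4.38% to 49.4%) and 3.14% (0% to 9.70%).

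Of the Robo receptors, Robo1 was higher in the Sst libraries. Robo1 and Robo2 are the main Slit receptors of sensory axons. Robo1 lies on chromosome 16, 72308306 to 73046095, plus strand. Its levels were 40.8, 62.5, 37.3 and 7.89 CPM in the Sst libraries and 3.10, 3.84, 3.93 and 1.17 CPM in Trpv1 libraries. Sst replicate 4 was the lowest of its group and still above each Trpv1 library. Robo1 was 12.4-fold higher in the Sst libraries (37.1 ± 22.4 against 3.01 ± 1.28 CPM, log2 fold change 3.63, SE 0.682, edgeR adjusted p = 0.00112), and it passed within the 6 libraries with Xist as well (3.93, adjusted p = 0.0436).

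Robo2 was among the most abundant members in both groups. Per length, the highest group means of the 39 members in the Sst libraries were those of Ntng1 (9.50 CPM per kb), Slit1 (9.39), Robo2 (9.08), Efnb2 (7.64) and Efna5 (7.14). In the Trpv1 libraries they were those of Neo1 (9.56), Robo2 (6.29), Unc5d (5.29) and Efna1 (4.78). The Efna1 mean rests on Trpv1 replicate 4, at 12.4 CPM per kb beside 0.555 to 4.69 in the other 3. For Robo2 the levels were 175, 143, 186 and 114 CPM in the Sst libraries and 102, 106, 101 and 119 CPM in Trpv1 libraries. Trpv1 libraries lay close together, and Sst replicate 4 lay among them. The difference did not pass (154 ± 32.6 against 107 ± 8.59 CPM, log2 fold change 0.53, SE 0.245, adjusted p = 0.221). Robo2 made up 81.5% of the Robo level per length in Sst libraries and 97.1% in Trpv1 libraries, and Robo1 the other 18.5% (6.67% to 31.0%) and 2.88% (0.997% to 3.87%). Robo3 held 0 counts in all 8 libraries, as did the ligands Efna2 and Efna4. Over 76268655 counts in all, 0 counts allow a level of up to 0.0393 CPM, a limit that covers counting error only, since reads carried no molecular identifiers.

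**Figure D3:**
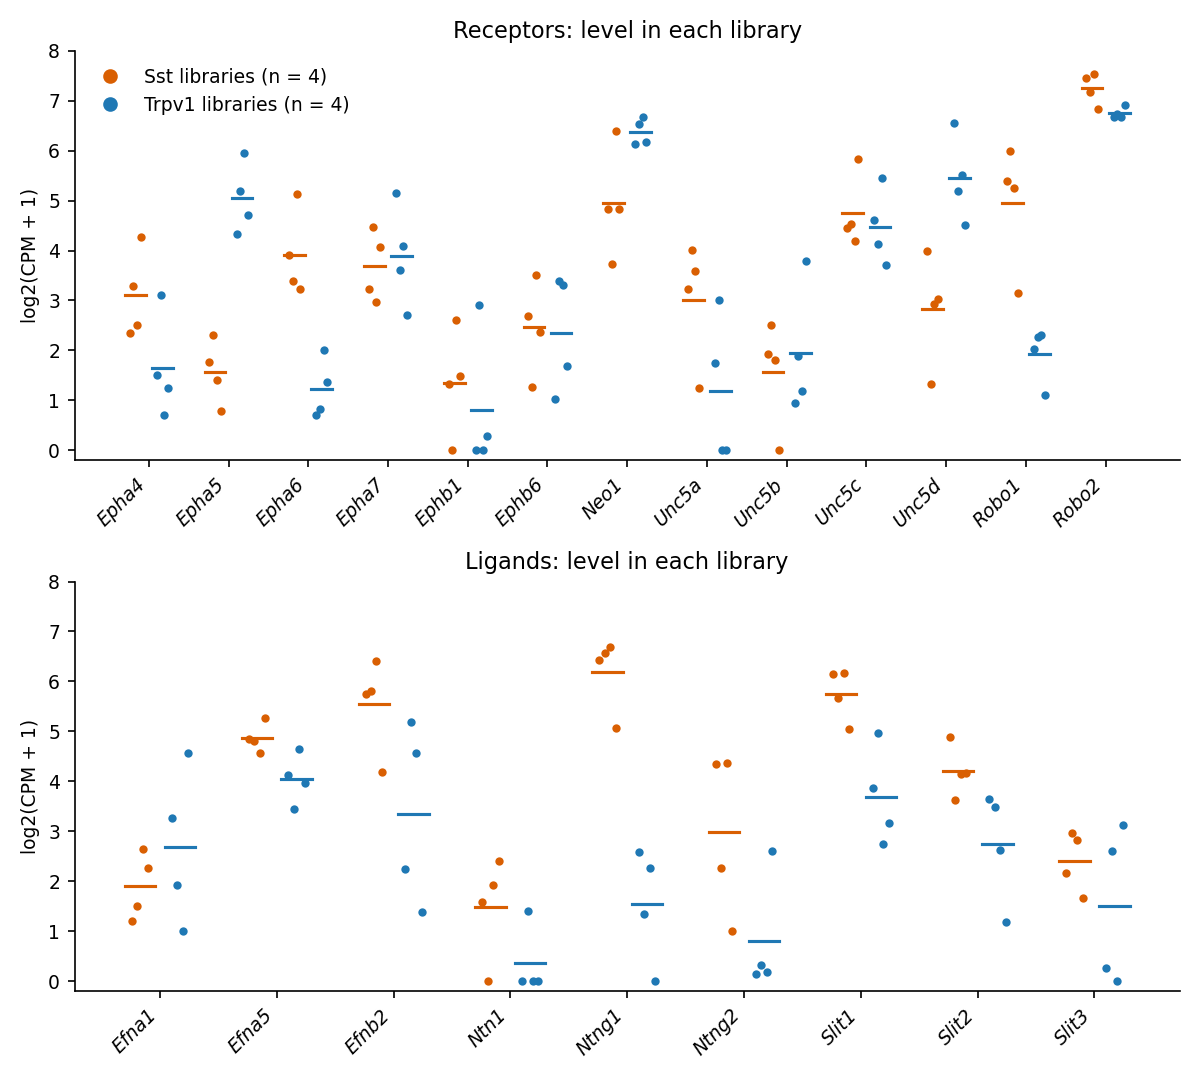
Level of the 22 tested members in each library as log2(CPM + 1), 13 receptors and 9 ligands in separate panels, with each point 1 library, Sst in orange and Trpv1 in blue, and a line at the mean of the 4 log values. Robo2 sits at 101 to 186 CPM in all 8 libraries, and Epha5 and Epha6 differ in opposite directions.

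Among the ligands, Ntng1 gave the largest fitted difference of the 22 tested members. Ntng1 encodes netrin-G1, which is anchored in the axon membrane and binds the netrin-G ligand Lrrc4c on partner cells. It lies on chromosome 3, 109780040 to 110144011, minus strand. Its levels were 84.8, 93.5, 103 and 32.4 CPM in the Sst libraries and 4.97, 1.53, 3.81 and 0 CPM in Trpv1 libraries. Sst replicate 4 was the lowest of its group, and Trpv1 replicate 4 held no count. Ntng1 was 30.1-fold higher in the Sst libraries (78.3 ± 31.5 against 2.58 ± 2.23 CPM, log2 fold change 4.91, SE 0.591, edgeR adjusted p = 3.40e-06).

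Ntng2, the gene of the other netrin-G, was at 19.4, 3.82, 19.6 and 0.998 CPM in the Sst and at 0.103, 0.256, 0.127 and 5.09 CPM in the Trpv1 libraries. It did not pass (log2 fold change 2.87, adjusted p = 0.0923), but did without Sst replicate 4 (3.27, adjusted p = 0.0348). That was the only 1 of 17 alternatives in which Ntng2 passed. Without Trpv1 replicate 4 the fitted difference was 6.02 (adjusted p = 0.0624), and within the 6 libraries with Xist 1.99 (edgeR adjusted p = 0.436). Of its exon bases, 14.0% are shared with the transcript 6530402F18Rik on the same strand. Of the secreted netrins, Ntn1 averaged 2.26 and 0.416 CPM (log2 fold change 2.61, adjusted p = 0.258), and its Trpv1 counts came from replicate 2 alone. Without that library the fitted value, 7.53, rests on a group at 0 and is no estimate of the fold. Ntn3 and Ntn4 were not tested, with means of 0.125 and 0.417 CPM and of 2.51 and 0.371 CPM. Ntn4 was at 9.34 CPM in Sst replicate 4 and at most at 0.761 CPM in any other library. Summed per length, netrins and netrin-Gs stood at 7.37 to 17.8 CPM per kb in the Sst and 0.690 to 1.28 in the Trpv1 libraries. Ntng1 held 70.1% (53.3% to 91.6%) and 38.5% (0% to 65.3%) of that, and the Trpv1 shares rest on few counts.

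All 3 Slits had a higher mean in the Sst libraries, and Slit1 passed. Slit1 lies on chromosome 19, 41600257 to 41743665, minus strand. Its levels were 69.5, 49.6, 71.1 and 32.2 CPM in the Sst libraries and 13.7, 30.2, 5.71 and 7.96 CPM in Trpv1 libraries. Sst replicate 4 and Trpv1 replicate 2 nearly met, at 32.2 and 30.2 CPM. Slit1 was 3.92-fold higher in the Sst libraries (55.6 ± 18.4 against 14.4 ± 11.1 CPM, log2 fold change 1.97, SE 0.463, edgeR adjusted p = 0.0100), and the difference was 3.03 within the 6 libraries with Xist (adjusted p = 0.0117).

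Slit2, at 18.4 ± 7.38 against 7.07 ± 4.74 CPM, did not pass (log2 fold change 1.39, adjusted p = 0.188). Slit3, at 4.63 ± 2.17 against 3.27 ± 3.81 CPM, did not pass either (0.47, adjusted p = 0.817, and 1.46 without Trpv1 replicate 4, adjusted p = 0.483). Per length Slit1 led the family in every library, with 85.9% of the summed level in the Sst (84.2% to 87.8%) and 73.9% in the Trpv1 libraries (50.3% to 82.5%). The summed level of Slits was 6.46 to 13.7 CPM per kb against 1.17 to 6.34, without overlap. Slit1 and its receptor gene Robo1 were thus both higher in the Sst libraries, while Robo2 did not pass.

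None of the ephrins was called. Efnb2, the transmembrane ephrin-B2, was at 53.0, 55.0, 84.1 and 17.3 CPM in the Sst libraries and at 3.73, 35.6, 22.8 and 1.59 CPM in the Trpv1 libraries. Sst replicate 4 lay below Trpv1 replicates 2 and 3, and the other 3 Sst libraries lay above all Trpv1 libraries. The difference did not pass (52.4 ± 27.3 against 15.9 ± 16.2 CPM, log2 fold change 1.79, SE 0.578, adjusted p = 0.0677). It passed without Sst replicate 4 (2.08, adjusted p = 0.0251), without Trpv1 replicate 2 (2.59, adjusted p = 0.0235) and by limma voom (2.68, adjusted p = 0.0336). It was farther from passing by DESeq2 (1.70, adjusted p = 0.334), with edgeR's earlier quasi-likelihood method (1.72, adjusted p = 0.248) and without Sst replicate 3 (1.47, adjusted p = 0.221).

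Efna5, a lipid-anchored ligand of EphA receptors, was at 27.7, 27.1, 22.8 and 37.5 CPM in the Sst libraries and at 16.6, 9.85, 24.1 and 14.6 CPM in the Trpv1 libraries. Only Trpv1 replicate 3 reached into the Sst range, and the difference did not pass (log2 fold change 0.83, SE 0.443, adjusted p = 0.305). Efna1 averaged 3.06 ± 1.83 against 8.76 ± 9.78 CPM (log2 fold change −1.55, adjusted p = 0.284), with 22.6 CPM in Trpv1 replicate 4, and its difference without that library was −0.48. The untested Efnb1 averaged 4.09 and 0.317 CPM, Efnb3 1.69 and 0.244 CPM, and Efna3 1.00 and 0.574 CPM. Per length, Efna5 held 40.3% and 37.1% of the summed ephrin level and Efnb2 39.7% and 23.7%.

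**Figure D4:**
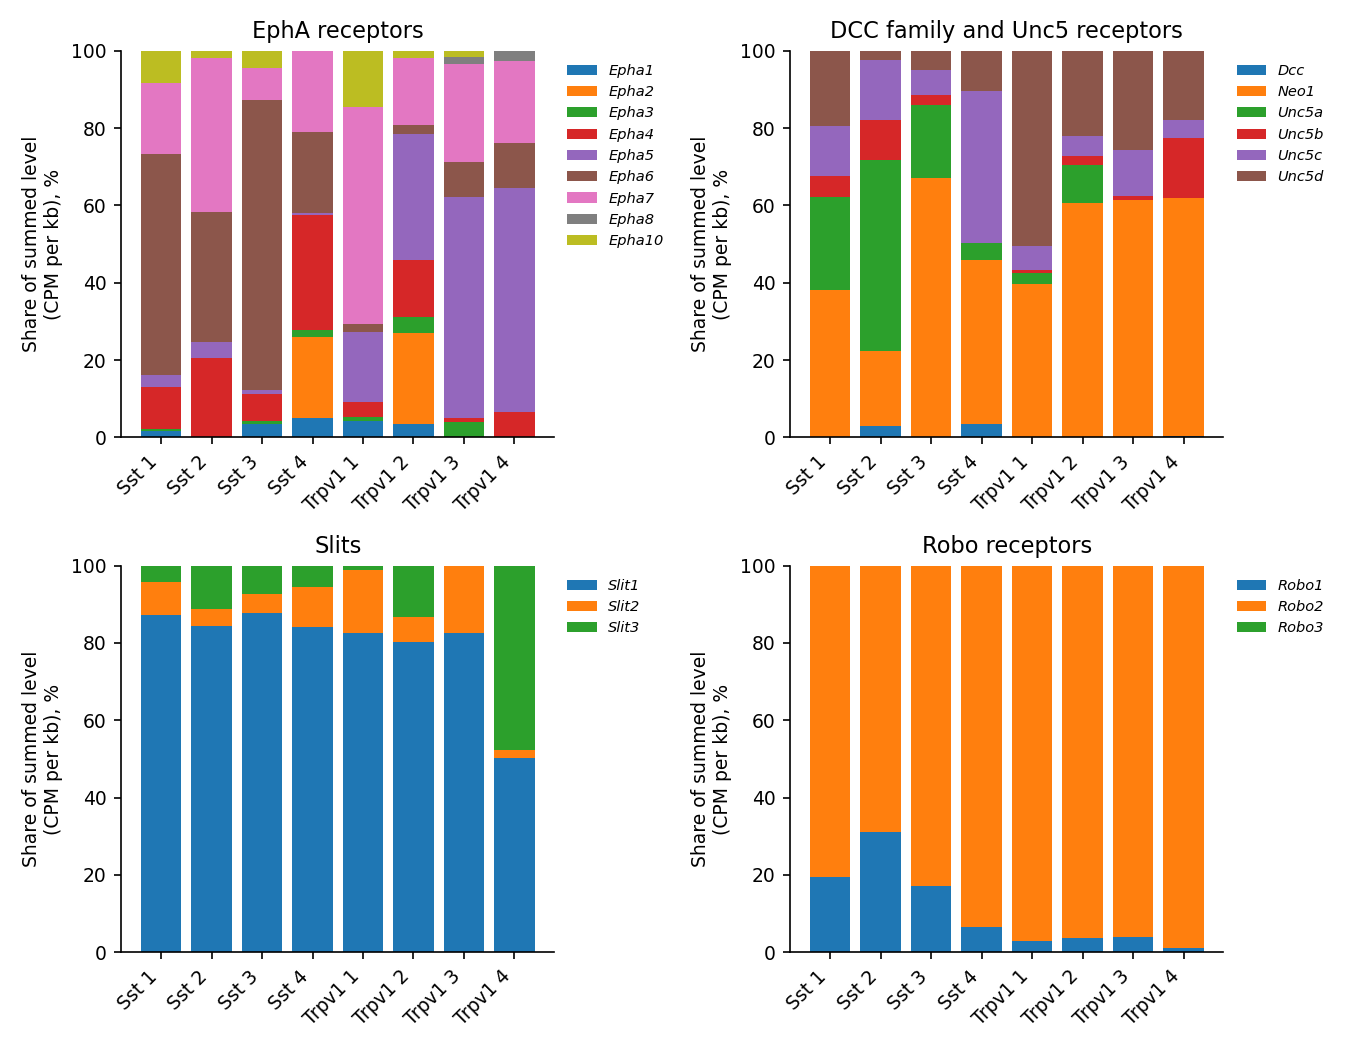
Share of each family's summed level, in CPM per kb of exon, taken by each member in each of the 8 libraries. Epha5 fills 18.2% to 58.0% of the EphA bars in the Trpv1 libraries and at most 4.37% in the Sst libraries, and Robo1 6.67% to 31.0% of the Robo bars in the Sst libraries.

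Markers of other neuron classes also differed between libraries. Within the Sst libraries, replicate 4 had the lowest share of myelinated neuron markers (0.403%, beside 0.582% to 0.863%) and also the lowest Ntng1, Robo1, Slit1, Epha6 and Efnb2. Sst replicate 3 had the highest share (0.863%) and the highest Ntng1, Epha6, Slit1 and Efnb2, while Robo1 was highest in Sst replicate 2. Other members ran the opposite way, among them Efna5 (37.5 CPM), Epha4 (18.3 CPM) and Unc5c (56.1 CPM), which were highest in Sst replicate 4. Nefm and Nefh made up most of the summed myelinated marker level, as in Sst replicate 1 (4089 and 854 of 5745 CPM). Of the other myelinated markers, Spp1, Ldhb and Heg1 were not at their lowest Sst level in replicate 4, and the rest were. In the Trpv1 libraries, where Epha5 and Unc5d were higher, the peptidergic markers together took a higher share in each library than in any Sst library. Within the Trpv1 libraries, replicate 4 had the highest peptidergic share (0.3%) but the lowest Unc5d (21.8 CPM). Trpv1 replicate 3 had the highest Epha5 (61.0 CPM) and the lowest peptidergic share of raw counts (0.17%). On the TMM scale of the Epha5 values, its summed peptidergic level (2061 CPM) lay between those of Trpv1 replicates 1 and 2 (2055 and 2136 CPM). Of 8 markers of the NP3 itch neuron class, 3 (Il31ra, Htr1f and Jak1) were higher in the Sst libraries and 0 lower. The peptide genes Sst, Nppb and Nts did not pass. The 8 took 0.431% to 0.646% of the counts against 0.196% to 0.27%, with Jak1 a large part (2426 of 4248 summed CPM in Sst replicate 1). Sst replicate 4, the lowest of its group in myelinated markers, was the highest in the NP3 markers (7123 summed CPM, beside 4248 to 4635). The part of these classes of neurons in the members' differences was not tested. Glial markers took 0.104% to 0.136% and 0.0833% to 0.146% of the counts, with 1 of 12 tested higher (S100b, 192 ± 38.8 against 60.5 ± 15.4 CPM). Markers of fibroblasts and pericytes took 0.0499% to 0.0917% and 0.0258% to 0.0518%, with 1 of 8 higher (Rgs5, 547 ± 161 against 215 ± 83.8 CPM). Rgs5 made up most of the summed level in the Sst libraries, as in Sst replicate 1 (463 of 523.5 CPM). Sst replicate 4 also stood apart in Col1a1, at 129 CPM beside 1.79 to 18.4 CPM in the other Sst libraries. Col1a1 was at 54.8 and 75.8 CPM in Trpv1 replicates 1 and 2 as well, and at 3.93 and 3.82 CPM in Trpv1 replicates 3 and 4. Endothelial markers stayed at or below 0.00648% and immune markers at or below 0.00321%.

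Genes that act beside the members were followed in lists of partners. Of 26 partners of Eph and ephrin signalling, 24 were tested, 2 were higher, 3 were lower and 19 did not pass. Over all genes tested, 3.04% were higher and 3.31% lower. The median log2 fold change of the tested partners was 0.000544. Kalrn, which acts downstream of EphB receptors in dendritic spines, was at 23.2, 5.78, 15.6 and 13.7 CPM in the Sst and 87.8, 73.8, 74.5 and 110 CPM in the Trpv1 libraries. Every Trpv1 library was above every Sst library (fitted log2 difference −2.56, SE 0.381, edgeR adjusted p = 9.35e-05). Anks1b, an adaptor with SAM domains, was lower as well (24.3 ± 10.3 against 93.4 ± 30.5 CPM, −1.94, adjusted p = 0.00132). So was Adam10, a protease that cleaves ephrin-As (27.9 ± 10.1 against 69.3 ± 8.40 CPM, −1.31, adjusted p = 0.0217). Higher were Vav3 (25.0 ± 8.18 against 3.37 ± 3.35 CPM, 2.82, adjusted p = 0.00749) and Tiam1 (45.2 ± 10.0 against 16.2 ± 4.39 CPM, 1.49, adjusted p = 0.0269), both of which act downstream of Eph receptors. Within the 6 libraries with Xist, Vav3 (2.35, adjusted p = 0.135), Adam10 (−1.20, adjusted p = 0.173) and Tiam1 (1.63, adjusted p = 0.122) did not pass.

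Of 27 netrin pathway partners, 24 were tested and 0 passed in edgeR, where 0 were higher and 5 lower at an unadjusted p under 0.05. At that threshold 10.3% of all genes tested were higher and 10.1% lower. DESeq2 called 1 lower and limma voom 0. Lrrc4c, the receptor for netrin-G1, is named here after its values were seen. It was at 15.7, 6.43, 4.36 and 20.4 CPM in the Sst and 31.6, 29.4, 42.1 and 21.9 CPM in the Trpv1 libraries. Its groups did not overlap, but the difference did not pass (log2 fold change −1.39, adjusted p = 0.0997).

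Of 20 Slit and Robo pathway partners, 19 were tested, 0 were higher and 2 lower, beside 3.04% and 3.31% of all genes tested. At an unadjusted p under 0.05, 2 were higher and 2 lower, beside 10.3% and 10.1% of all genes tested. Srgap1, a GTPase-activating protein that binds Robo receptors, was at 126 to 162 CPM in the Sst and 220 to 396 CPM in Trpv1 libraries (146 ± 17.7 against 305 ± 72.7 CPM, log2 fold change −1.06, SE 0.226, adjusted p = 0.00451). Nell2, a secreted ligand of Robo3, was at 1.49, 0.763, 0 and 1.18 CPM in the Sst and 21.8, 12.3, 1.78 and 0.425 CPM in the Trpv1 libraries. Its groups overlapped, and the high values lay in Trpv1 replicates 1 and 2, the libraries without Xist. Nell2 was called lower (log2 fold change −3.42, adjusted p = 0.0397), but not with a term for sex, where the difference was −0.29 (adjusted p = 0.957).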

How the data were processed

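The deposited table gives raw read counts by gene symbol in 8 columns, 1 per sample, and 0 columns were left unused. Per the labels' protocols, RNA of picked cells was extracted with PicoPure, amplified with Ovation RNA-seq V2 and made into libraries with Nextera XT. Each picking session held 1 sample per genotype. Per the submitters' processing notes, bcl2fastq 2.17, Trimmomatic 0.33 and featureCounts were used on GRCm38. For the aligner, annotation and strand setting, nothing is given in the sources used here. Amplification from small pools adds spread to genes of low abundance.

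Counts of all genes were scaled by trimmed mean of M-values (TMM) and filtered with edgeR's expression filter (minimum count 10), which left 11828 genes. The test was edgeR's quasi-likelihood F test (edgeR 4.0.16, R 4.3.3), robust and two-sided, with a term for group alone, the quasi-likelihood method of edgeR's version 4 and Benjamini-Hochberg adjustment over all genes tested. CPM values are TMM-normalised, and fold changes are Sst over Trpv1. A standard error is the log2 fold change over the root of F. Levels were divided by merged exon length of GENCODE M21 (GRCm38) where genes are set side by side. That length merges the exons of all annotated transcripts of a gene, such as 5921 bases for Slit1 and 25433 for Slit2. Shares and rankings per length depend on it. The analysis was tested on simulated data.

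The members and lists were chosen with earlier results of these data known. Called members are given per library with coordinates, members with a mean of at least 20 CPM per library or by range, and others by mean. Of each partner list the called genes are named. Alternatives tried were RLE size factors, no filter and a stricter filter (5 CPM in 4 libraries), DESeq2 1.42.0, limma 3.58.1 voom with sample weights, dispersion not made robust, a block for replicate number, a term for sex (Xist at 100 counts or more), the libraries with Xist alone, and each of the 8 libraries left out. edgeR's earlier quasi-likelihood method was added after seeing the data.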

Additional observations from a re-analysis of the deposited data

Results flagged for a closer look

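Over the 22 tested members and both groups, 44 sets of 4 libraries were examined for 1 library far from the other 3, by Dixon's ratio at its 95% level. This marked 5 sets. Chance marks about 1 in 20 for normally distributed values, which the CPM of genes near 0 are not, so the share marked is not read against it. None of the 5 belongs to a called member.

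Ephb1 was at 6.52 CPM in Trpv1 replicate 2, beside 0, 0 and 0.212 CPM in the other Trpv1 libraries. Ntn1 was at 1.66 CPM in the same library and at 0 in the other 3. Trpv1 replicate 4 held 5.09 CPM of Ntng2, beside 0.103 to 0.256 CPM in the other 3, and 12.8 CPM of Unc5b, beside 0.931 to 2.69 CPM. Unc5c was at 56.1 CPM in Sst replicate 4 and at 17.1 to 22.0 CPM in the other Sst libraries.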

How the results depend on the processing

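Over 18 alternatives none of the 6 called members or 7 called partners changed direction. Of the members not called, Ephb1, Ephb6, Epha7, Unc5b and Unc5c changed the sign of their small difference in at least 1. Epha5, Ntng1, Robo1 and Slit1 passed in all 18, Slit1 with an adjusted p of up to 0.0474 (without Sst replicate 1). The count of all genes called, 751, was 493 with edgeR's earlier quasi-likelihood method, an alternative chosen after seeing the data, 435 with a term for sex, 305 in the libraries with Xist alone and 452 to 747 when 1 library was left out. With the sex term and in the libraries with Xist alone, members called lower fell from 2 to 1, receptors called lower from 2 to 1 and receptors called higher from 2 to 1, the last also by limma voom. Eph partners called fell from 5 to 2 there. Leaving out 1 library gave 4 to 6 members called higher (6 without Sst replicate 4), 2 to 3 lower (3 without Sst replicate 3), 2 to 4 ligands higher (4 without Sst replicate 4, 3 without Trpv1 replicate 2) and 2 to 3 receptors lower (3 without Sst replicate 3). It gave 3 to 4 Eph partners (3 without Sst replicate 3 or Trpv1 replicate 1), 0 to 2 netrin partners (2 without Sst replicate 4, 1 without Trpv1 replicate 2) and 1 to 2 Slit and Robo partners (1 without Sst replicate 1, 2 or 3 or Trpv1 replicate 1 or 2). For all genes the count was 500 without Sst replicate 1, 452 without Sst replicate 3 and 487 without Trpv1 replicate 3. DESeq2 called 1 netrin partner. Slit and Robo partners fell from 2 to 1 with the stricter filter, limma voom, the replicate block, the sex term, the libraries with Xist alone and the earlier quasi-likelihood method.

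Correlations of same-numbered libraries' deviations from their group means were 0.00633, 0.0316, −0.0296 and −0.0203, so the numbers were not taken to pair the samples. With the replicate block 572 genes and all 6 called members passed, and Efnb2 passed in addition (2.00, adjusted p = 0.0330). On the log2 scale, Slit1 differed by 2.60 without Trpv1 replicate 2, Ntng1 by 5.55 without Trpv1 replicate 1 and Vav3 by 3.79 without Trpv1 replicate 4. Adam10 and Tiam1 lost their call in 8 alternatives each, and Nell2 in 11 of the 17 that gave it a value. Levels near 1 CPM rest on about 10 counts per library, which limits the precision of the low members.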
